A study of Oryza sativa with 20 samples.

Results

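The 200 rice genes described here were low in the young lamina joint, high in the blade at the same stages, and high in the joint by the third stage, S3. The lamina joint (LJ) is the hinge between leaf sheath and leaf blade that sets the leaf angle. The members were chosen by measured values: 200 of 37829 rice gene IDs, selected on their level, the mean log2(FPKM + 1) of a group, where FPKM is a fragment count per length of transcript and per mapped fragment of the library. The score of a gene was its lowest level among blade at S1, blade at S2 and LJ at S3, minus its higher level of LJ at S1 and S2, and the 200 highest scores were kept.

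The study sampled both tissues of each rice seedling's first complete leaf on days 4, 5, 6, 7 and 9 after germination. Its stages are labelled S1 to S5, from organogenesis to the formation of the leaf angle (the labels list days and stages without pairing them), and the 10 groups are LJ at S1 to S5 and blade at S1 to S5, each with 2 libraries. All seedlings were grown in water under a day and night cycle, and the labels name no mutation, treatment or cultivar for any group. The LJ pieces were under 1 mm long and the blade pieces under 10 mm, so each library pools several tissues and cell types, and a change in the number of cells of a type and a change in RNA per cell cannot be told apart. No label says whether the 2 libraries of a group are different plants, so the spread behind each p-value may be technical.

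A leaf of rice matures from the tip downwards: cells divide first, then stretch, then lay down cuticle, secondary wall and chloroplasts, and the blade is ahead of the joint below it. Expansins are wall proteins that let growing cell walls slide and extend. Lipid transfer proteins are small secreted proteins that bind lipids and are abundant in the epidermis, where the cuticle forms. Germin-like proteins are secreted wall proteins, and COMT1, a caffeic acid O-methyltransferase, makes precursors of lignin.

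Of the 200 members, 6 could be paired with a gene symbol: LTP2-A and LTP2-B (lipid transfer proteins), EXPB3 and EXPB11 (beta-expansins), GER5 (a germin-like protein) and COMT1. The names LTP2-A, LTP2-B and GER5 were attached after their values had been seen. The other 194 are given by their ID, with no role. The members lay on all 12 chromosomes, from 0.357% of the IDs of chromosome 4 to 0.794% of those of chromosome 5.

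The scores ran from 2.74 to 7.58, with a median of 3.50. After OS10G0150600 (7.58), OS10G0150400 (7.40), OS10G0150800 (7.24), OS07G0565800 (7.22) and OS10G0150700 (6.77), the scores dropped to 5.71 for OS06G0553200, 5.71 for OS06G0148200, 5.69 for OS10G0148100, 5.48 for OS05G0189300 and 5.47 for OS02G0538700. They come from the rule itself and are given as a description, without a test. Blade at S1 was the lowest of the groups with the genes on for 136 members, LJ at S3 for 50 and blade at S2 for 14. The last members inside the threshold were OS03G0808300, OS03G0371800 and OS11G0507200, all at 2.74. The first genes outside it were OS04G0577200 and OS06G0304600, both at 2.71, and OS03G0299200, at 2.70. No gap separates the members from the genes below them.

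The median member had 0.676 and 0.680 FPKM in the LJ libraries at S1, 1.25 and 1.30 FPKM at S2, 59.5 and 42.6 FPKM at S3, 15.4 and 29.7 FPKM at S4, and 10.3 and 10.7 FPKM at S5. In blade it had 30.8 and 32.1 FPKM at S1, 76.3 and 33.7 FPKM at S2, 130.7 and 143 FPKM at S3, 10.9 and 10.3 FPKM at S4, and 2.30 and 2.25 FPKM at S5. The median member was thus low in LJ at S1 and S2, highest at S3 and lower again after it, while in blade it was high for 3 stages and then low. Single members departed from this course: 72 had a higher mean in LJ at S4 than at S3. In LJ, 115 members averaged under 1 FPKM at S1 and 85 at S2, and none did at S3, when 197 averaged 10 FPKM or more.

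**Figure D1:**
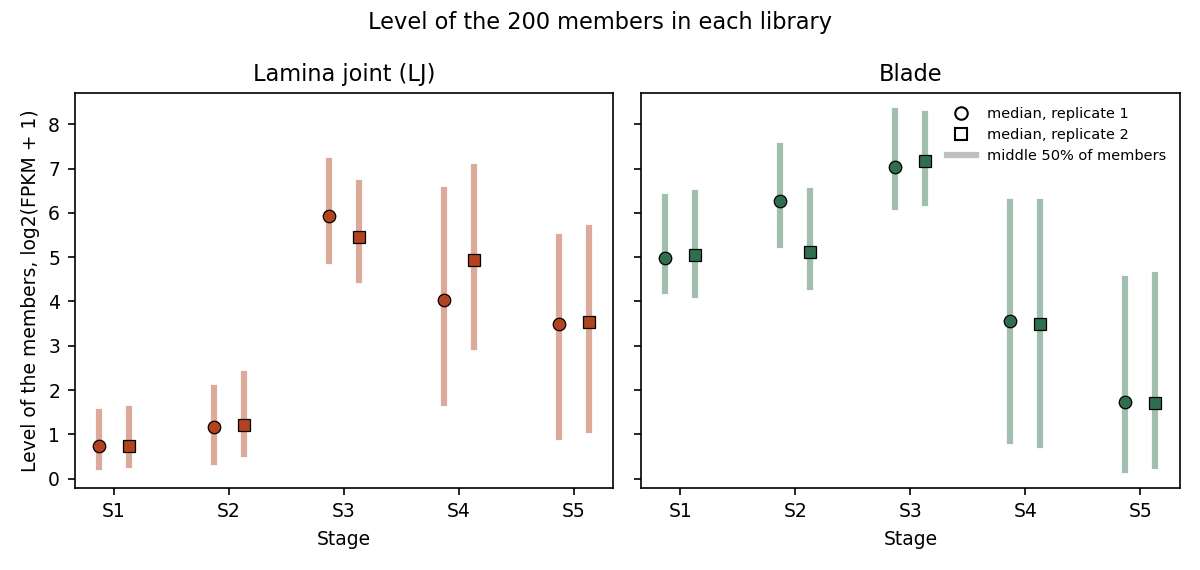
Level of the 200 members as log2(FPKM + 1) by stage, lamina joint left and blade right. Points are the median member of each library (circle, replicate 1; square, replicate 2) and bars span the middle 50% of members. The joint libraries lie low at S1 and S2 and highest at S3, and the blade libraries rise to S3 and are low at S4 and S5.

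For 199 members, every library of LJ at S3 and of blade at S1 and S2 lay above every library of LJ at S1 and S2. These groups set the score, so that count largely follows from the choice of members and is a description. The exception was OS08G0382500, the member of rank 47, which was singled out after its values were seen. It was listed at exactly 0 in 9 of the 20 libraries. In 5 of these the other library of the group held between 320 and 4839 FPKM: blade at S3, for example, gave 4839 FPKM in replicate 1 and 0 in replicate 2. An exact 0 beside such a replicate may be a failed estimate in the FPKM calculation, and whether the gene was off in young LJ cannot be read from these files. Over all genes, 22 IDs were listed at 0 in 1 library while the other held at least 100 FPKM, and OS08G0382500 was the only member among them. It passed no test below. In LJ at S1 and S2, 166 members were above 0 in all 4 libraries, and 5 were listed at 0 in all 4.

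**Figure D2:**
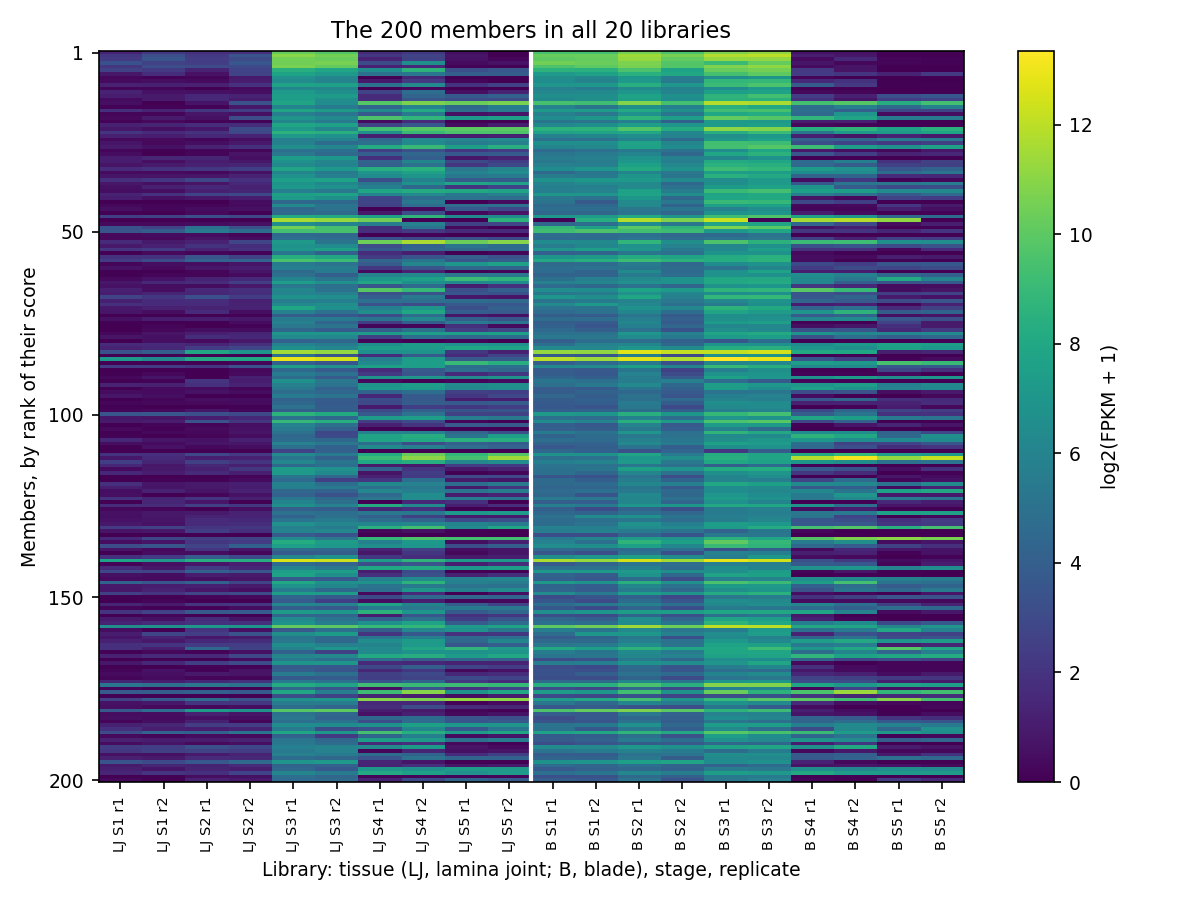
The 200 members (rows, by rank of score) in all 20 libraries (columns, LJ left and blade right of the white line), coloured by log2(FPKM + 1). The dark LJ columns at S1 and S2 and the bright columns from LJ S3 and blade S1 to S3 follow from the rule, and the row of rank 47 alternates between bright and 0 within groups.

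In LJ the members made up a small share of all transcript signal at S1 and a larger one later, and in blade their share was highest at S3. LJ at S1 and S3 and blade at S1 entered the score, so the shares there are a description. The summed FPKM of the members was 0.079% and 0.078% of the total in the LJ libraries at S1, 4.97% and 3.89% at S3, and 1.92% and 2.40% at S5. In blade the share was 2.78% and 2.96% at S1, 8.71% and 8.79% at S3, and 1.799% and 1.68% at S5. A few genes held much of it: LTP2-A and LTP2-B together made up 28.75% and 28.98% of the member sum in LJ at S3, and 19.98% and 15.71% in blade at S3.

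The rule did not use blade at S3, and there most members stood higher still. The mean at S3 was above that at S2 in 183 of the 200 (91.5%), against 48.1% of the 22378 genes with at least 1 FPKM in either group. The median ratio of S3 over S2 was 2.63. Blade at S2 entered the choice of members through its lowest value, so this share is a description. The highest blade mean fell at S3 for 154 members, and at S1, S2, S4 and S5 for 8, 12, 16 and 10. In LJ the highest mean fell at S3 for 122 members, at S4 for 56 and at S5 for 22. The median ratio of LJ at S3 was 1.48 over blade at S1, 0.933 over blade at S2 and 0.352 over blade at S3. LJ at S3 and blade at S1 and S2 all entered the score, so these ratios are a description. The ratio over blade at S2 also averages libraries that differed, with medians of 76.3 and 33.7 FPKM over the members. Only 25 members were higher in LJ at S3 than in blade at S3.

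LTP2-A and LTP2-B, the lipid transfer protein genes on chromosomes 11 and 12, had the highest levels of all members in 5 of the 10 groups. They are near-identical copies, so fragments may have been split between them and the 2 values are not independent. LTP2-B had 135 and 80.5 FPKM in LJ at S1, 267 and 251 at S2, 7579 and 5690 at S3, 54.2 and 166 at S4, and 12.4 and 12.8 at S5. In blade LTP2-B had 3937 and 2720 FPKM at S1, 6657 and 3442 at S2, 10428 and 7427 at S3, 10.9 and 4.67 at S4, and 0.0889 and 0.291 at S5. The gene was thus never silent in young LJ, had at least 5690 FPKM in each library of both tissues at S3, and left blade almost completely by S5. LTP2-A followed the same course until S4 but stayed on in the joint: it had 159 and 411 FPKM in LJ at S4 and 163 and 151 FPKM at S5, against 9.05 and 3.75 FPKM in blade at S4 and 0.337 and 0.763 FPKM at S5. Both LJ libraries lay above both blade libraries at S4 and at S5 for both genes.

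The beta-expansins followed different courses once on. EXPB3 had 0.799 and 0.534 FPKM in LJ at S1, 0.614 and 1.87 at S2, 121 and 73.9 at S3, 34.1 and 116 at S4, and 229 and 197 at S5. In blade EXPB3 had 61.6 and 78.7 FPKM at S1, 79.6 and 21.9 at S2, 98.99 and 143 at S3, 11.1 and 37.2 at S4, and 39.9 and 48.9 at S5. Its highest LJ level was therefore at the last stage, whereas blade was highest at S3. EXPB11 had 2.42 and 2.13 FPKM in LJ at S1, 2.16 and 1.42 at S2, 80.9 and 94.3 at S3, 9.53 and 7.29 at S4, and 12.1 and 11.2 at S5. In blade it had 79.6 and 143 FPKM at S1, 71.1 and 28.6 at S2, 43.5 and 100.2 at S3, 1.07 and 1.34 at S4, and 0.175 and 1.30 at S5. EXPB11 was brief in both tissues, with a remnant in LJ after S3 that blade lacked. The adjacent ID OS02G0658850 is also a member, with 128 and 189 FPKM in LJ at S3, and without strand its reads and those of EXPB11 cannot be told apart.

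GER5, the germin-like gene, was already above 100 FPKM in LJ at S2. It had 9.03 and 15.3 FPKM in LJ at S1, 250 and 129 at S2, 2873 and 2338 at S3, 102 and 111 at S4, and 3.42 and 1.25 at S5. In blade GER5 had 2386 and 2255 FPKM at S1, 6612 and 4388 at S2, 4519 and 5601 at S3, 287 and 257 at S4, and 1.20 and 1.57 at S5. It was close to off in both tissues at S5, with overlapping libraries. COMT1, the lignin gene, had 18.7 and 11.03 FPKM in LJ at S1, 16.6 and 5.70 at S2, 246 and 104 at S3, 110 and 400.2 at S4, and 55.9 and 48.2 at S5. In blade COMT1 had 145 and 114 FPKM at S1, 340.2 and 105 at S2, 737 and 545 at S3, 171 and 659 at S4, and 34.8 and 28.1 at S5. Its replicates at S4 differed by more than 3-fold in both tissues, and the tissues overlapped there.

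**Figure D3:**
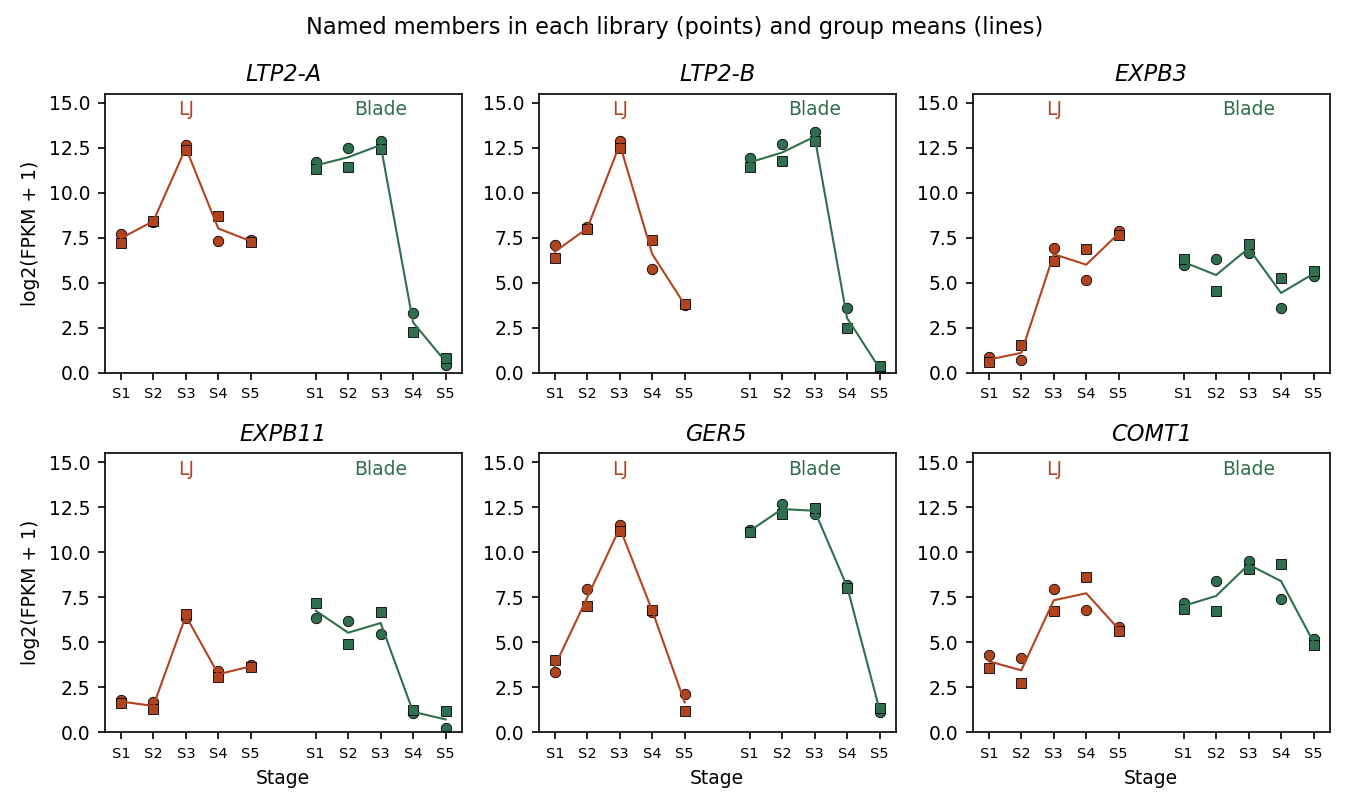
The 6 members with a symbol: log2(FPKM + 1) in each library (circle, replicate 1; square, replicate 2) and group means (lines), LJ left and blade right in each panel. LTP2-A stays near its S4 level in LJ at S5 and is under 1 FPKM in blade at S5, EXPB3 is highest in LJ at S5, and GER5 is low in both tissues at S5.

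Many members were neighbours in the genome. Taking as neighbours IDs at most 5 places apart in ID order, 54 members (27.0%) fell in 23 runs: 18 pairs, 3 runs of 3 and single runs of 4 and 5. A run chains such neighbours, so its ends can lie further apart than 5 places. The runs were described after the values had been seen. Some of their IDs may be overlapping models of 1 transcript, since 21 members have an ID that does not end in 00.

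The run of 5 on chromosome 10, OS10G0150300, OS10G0150400, OS10G0150600, OS10G0150700 and OS10G0150800, included the 3 highest scores. Their summed FPKM was 24.5 and 57.0 in LJ at S1, 175 and 136 at S2, 7162 and 5746 at S3, 9.50 and 16.8 at S4, and 1.96 and 0.235 at S5. In blade the sum was 4542 and 5220 FPKM at S1, 9994 and 5246 at S2, 9822 and 11490 at S3, 3.52 and 4.07 at S4, and 0.215 and 0.134 at S5. The 5 genes thus came on together in LJ at S3, to at least 844 FPKM in each library of each gene, and had at most 5.58 FPKM in any library of either tissue at S4. OS10G0150300 differed from the rest in 2 ways: LJ at S2 already held 157 and 110 FPKM, and blade at S3 (402 and 562 FPKM) was below blade at S2 (1703 and 990 FPKM). OS10G0148100, a member of the 10 highest scores nearby, had the same single pulse in LJ, with 108 and 66.5 FPKM at S3, 0 and 1.67 at S4 and 0 in both libraries at S5. In blade OS10G0148100 had 94.0 and 134 FPKM at S3, 0.129 and 0 at S4 and 0 in both libraries at S5.

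The runs around LTP2-A and LTP2-B held genes that rose further in LJ after S3. Beside LTP2-B, OS12G0115000 had 222 and 85.8 FPKM in LJ at S3, 918 and 1707 at S4, and 1292 and 1606 at S5. In blade OS12G0115000 had 3622 and 3228 FPKM at S3, 660 and 925 at S4, and 316 and 661 at S5. OS12G0115000 was thus still increasing in LJ, with libraries that did not overlap between S3 and S4, while LTP2-B beside it fell. At the other end of the run of LTP2-A, OS11G0116200 had 145 and 33.8 FPKM in LJ at S3, 1372 and 3185 at S4, and 1311 and 1962 at S5, the highest of all members in LJ at S4. In blade it had 788 and 376 FPKM at S3, 538 and 590 at S4, and 104 and 92.5 at S5. In LJ both LTP2 genes thus declined after S3 while these members of their runs rose. In blade OS12G0115000 and OS11G0116200 were lower at S5 than at S3, but still at 92.5 FPKM or more in each library. OS11G0115350 and OS12G0115000 may be similar copies, as the neighbouring LTP2 genes are, and their reads may be shared.

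**Figure D4:**
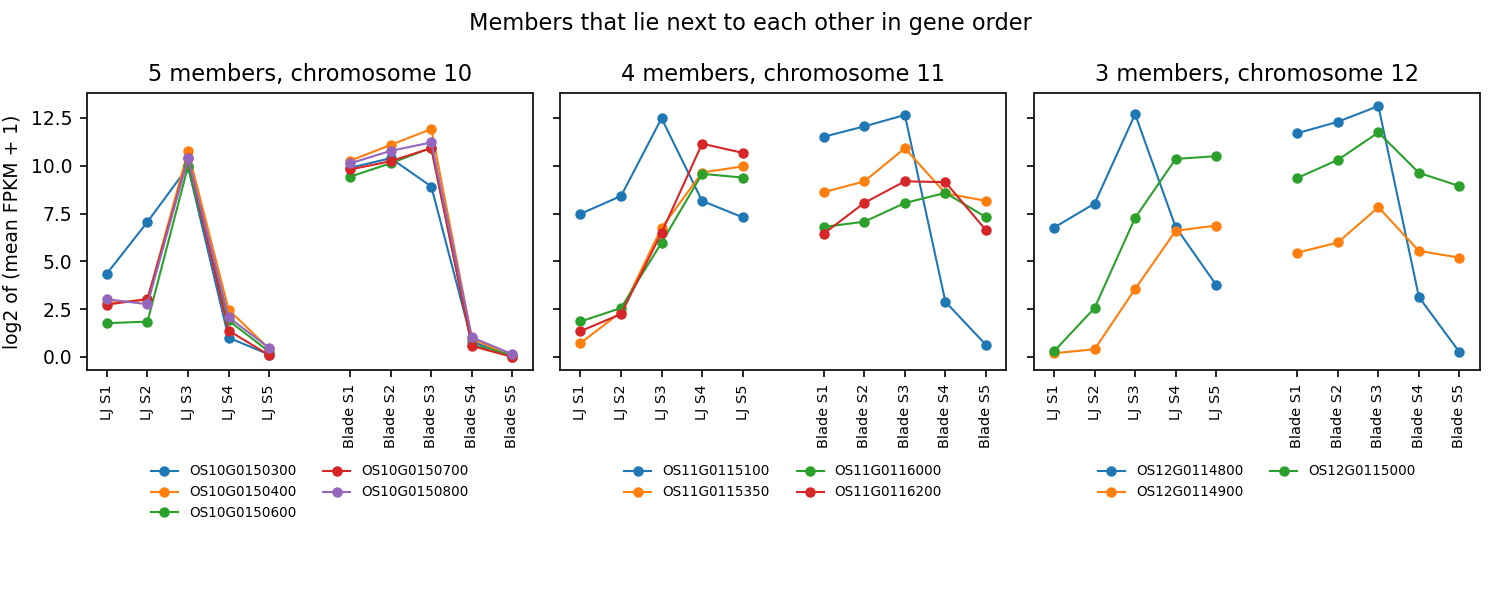
Group means as log2 of (mean FPKM + 1) for members of the same run, on chromosomes 10, 11 and 12, LJ groups left and blade groups right in each panel. The 5 genes on chromosome 10 drop together after S3. The other members of the runs of LTP2-A (OS11G0115100) and LTP2-B (OS12G0114800) are higher in LJ at S4 and S5 than at S3, and lower in blade at S5 than at S3.

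After S3 the members differed in how far they fell, and some rose. The 10-fold cut used here is a description and does not mark genes as on or off. At S4, 54 members were more than 10-fold below their S3 mean in both tissues, 49 in blade but not in LJ, 1 in LJ but not in blade, and 96 in neither. At S5 these counts were 87, 52, 1 and 60. The median ratio to S3 was 0.457 in LJ and 0.0900 in blade at S4, and 0.175 in LJ and 0.0162 in blade at S5. At S4, 52 members stood above their S3 mean in LJ and below it in blade, and 1 did the reverse. The same counts were not made over all genes, so they are not read as a trait of the members. LJ at S3 was used by the rule, so the LJ ratios are a description.

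The tests that follow compare only groups that the rule did not use, LJ at S4 and S5 and blade at S3, S4 and S5, but the spread was estimated over all 10 groups, those of the rule included. They were run with limma over all 26403 genes with at least 1 FPKM in at least 2 libraries. Calls were made at an adjusted p under 0.05, by the Benjamini-Hochberg method across these 26403 genes. All 200 members passed that filter, but since every member was high in the groups of the rule this was fixed by the choice. A difference is the first group minus the second on the log2(FPKM + 1) scale, given with its standard error, and understates the change of low genes.

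The first question was whether the members still differed between the tissues after S3. At S4, 49 members were called higher in LJ than in blade (24.5%), against 6.70% of all tested genes, and none was called lower, against 0.473%. Limma's unadjusted p was under 0.05 in 93 members in either direction, and in 5174 of all genes. The median difference was 0.79 over the members and 0.23 over all tested genes. At S5, 53 members were called higher in LJ (26.5%), against 7.63% of all genes, and 3 were called lower (1.5%), against 1.56%. The median difference at S5 was 0.71 over the members and 0.15 over all genes. Without regard to the test, both LJ libraries lay above both blade libraries in 97 members at S4 (48.5%), against 33.6% of all genes, and in 128 at S5 (64.0%), against 43.8%. Both lay below in 11 members at S4 (5.5%), against 5.4%, and in 15 at S5 (7.5%), against 15.4%. Under upper quartile scaling, which moves the median of all genes to 0.00 at S4 and 0.02 at S5, the members' median was 0.45 and 0.51.

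In LJ, 33 members were called higher at both stages, 67.3% of the members' S4 calls and 62.3% of their S5 calls. Over all tested genes the overlap was 57.5% of the S4 calls and 50.5% of the S5 calls, and the tests of the 2 stages share the spread estimated for each gene.

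The size of these counts depended on the fit and on single libraries. With the spread taken only from the 2 groups compared, 0 members were called at S4, where limma's unadjusted p was under 0.05 in 62 members, and 51 were called higher and 1 lower at S5. Over all tested genes, those fits called 0 higher at S4 and 218 lower at S5. Without replicate 2 of blade at S4, the library with the lowest median gene (0.849 FPKM), 19 members were called higher at S4, and without replicate 2 of LJ at S4, 24 were. At S5, 31 and 32 were called without replicates 1 and 2 of LJ and 30 without replicate 1 of blade. Libraries of LJ and blade with the same number varied together at each stage. With that number as a block, 69 members were called higher and 5 lower in LJ at S4, and 80 higher and 10 lower at S5. Over all tested genes the block called 685 lower at S4, and 4020 higher and 1617 lower at S5.

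The members with the largest LJ excess at S4 had nearly left the blade by then. OS06G0553200 had 90.2 and 388 FPKM in LJ and 3.70 and 0.657 FPKM in blade, a difference of 6.08 ± 0.69 (limma adjusted p = 1.5e-04). LTP2-A differed by 5.22 ± 0.48 (limma adjusted p = 2.4e-05) and LTP2-B by 3.55 ± 0.50 (limma adjusted p = 7.5e-04). OS05G0518300 had 19.97 and 34.8 FPKM in LJ and 0.368 and 0.0525 FPKM in blade, a difference of 4.51 ± 0.33 (limma adjusted p = 5.5e-06). OS07G0565800 and OS12G0630600 followed, with differences of 4.29 ± 0.81 and 3.87 ± 0.63. OS07G0565800 showed how far LJ replicates could part, with 7.29 FPKM in replicate 1 and 99.5 FPKM in replicate 2.

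EXPB11 was higher in LJ at S4 by 2.09 ± 0.46 (limma adjusted p = 0.013), a call lost without replicate 1 of LJ or replicate 2 of blade at S4 (adjusted p 0.0601 to 0.0687). EXPB3 differed by 1.57 ± 0.65 at S4 with overlapping libraries and did not pass the test (limma adjusted p = 0.18). GER5 was the member with a symbol that lay lower in LJ at S4 without overlap, by -1.35 ± 0.39. It missed the threshold (limma adjusted p = 0.0505) and passed it with the replicate block (adjusted p = 0.0121). COMT1 differed by -0.67 ± 0.74 at S4 and did not pass.

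At S5 LTP2-A was 6.69 ± 0.48 higher in LJ (limma adjusted p = 1.1e-06) and LTP2-B 3.52 ± 0.50 (limma adjusted p = 4.3e-04). OS11G0116200, the abundant gene in the run of LTP2-A, was higher by 4.02 ± 0.75. OS03G0123500, OS05G0518300 and OS06G0656300 were higher by 3.90 ± 0.46, 3.73 ± 0.33 and 3.70 ± 0.54. EXPB11 was higher by 2.95 ± 0.46 (limma adjusted p = 8.2e-04) and EXPB3 by 2.24 ± 0.65 (limma adjusted p = 0.043). The EXPB3 call was lost without any of 14 of the 20 libraries, with an adjusted p of 0.0517 to 0.216. COMT1 differed by 0.71 ± 0.74 without a call (limma adjusted p = 0.72), and passed with the replicate block (adjusted p = 0.0361). GER5 differed by 0.41 ± 0.39 with overlapping libraries.

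The 3 members lower in LJ at S5 were on in both tissues. OS02G0612900 had 33.3 and 48.1 FPKM in LJ and 214 and 264 FPKM in blade, a difference of -2.54 ± 0.38 (limma adjusted p = 6.1e-04). OS08G0102000 differed by -1.87 ± 0.49 and OS12G0292400 by -1.82 ± 0.46. The call of OS08G0102000 was lost without replicate 1 of LJ or either replicate of blade at S5, and that of OS12G0292400 without replicate 1 of LJ or replicate 2 of blade.

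**Figure D5:**
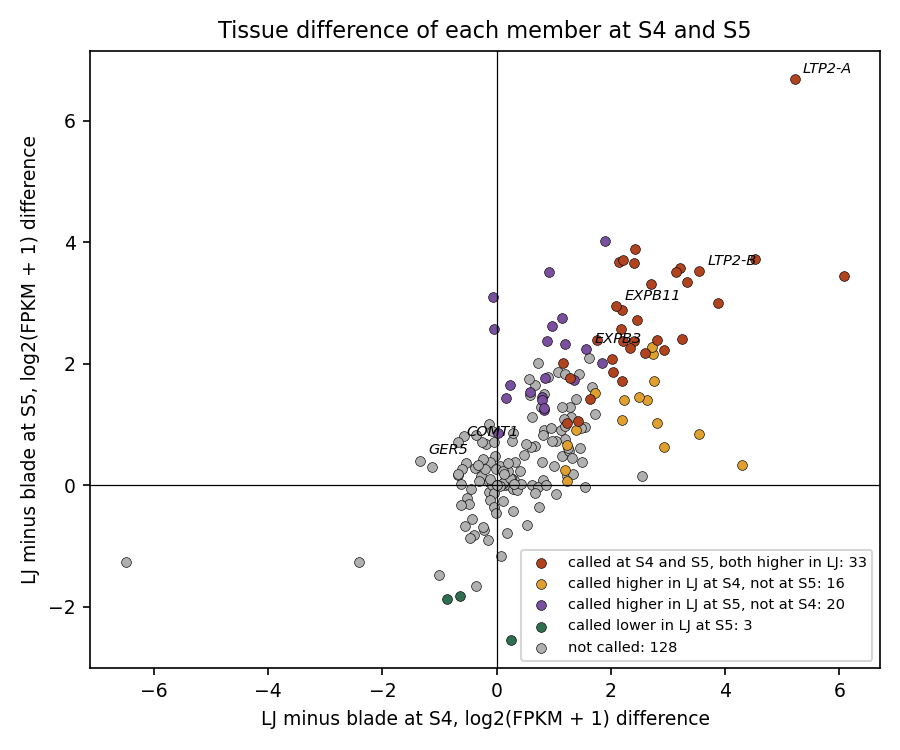
LJ minus blade difference of each member on the log2(FPKM + 1) scale at S4 (horizontal) and S5 (vertical), coloured by call. Of the 200 members, 33 were called higher in LJ at both stages, 16 at S4 and not S5, 20 at S5 and not S4, 3 lower in LJ at S5, and 128 at neither stage. The point at the far left is OS08G0382500, listed at 0 in single libraries.

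Markers of the joint and of other cell states also differed between LJ and blade, and their part in these counts was not tested. LG1, a gene needed to form the ligule and joint, was higher in LJ at S4 by 1.96 ± 0.27 and at S5 by 3.16 ± 0.27, and its mean lay above that of blade at every stage, with libraries that overlapped at S2. It had 3.34 to 24.4 FPKM in the LJ libraries and 1.35 to 4.24 FPKM in the blade libraries. LG1 came from a list of 3 lamina bending genes. Of these, 1 was called higher in LJ at each of S4 and S5, and none lower. The list medians were 0.75 at S4 and 0.21 at S5, against 0.23 and 0.15 over all genes. At S1 the list summed to 6.1 to 9.5 FPKM in LJ and 14.8 to 15.95 FPKM in blade. At S2 its sums were 7.3 to 10.8 FPKM in LJ and 18.5 to 27.6 FPKM in blade. The sums overlapped at S3 and were higher in LJ at S4 and S5. The summed FPKM of 11 cell division genes was 21.2 to 31.8 in LJ and 2.27 to 9.53 in blade at S4, and 16.5 to 17.3 in LJ and 11.2 to 11.6 in blade at S5; 4 of the 11 were called higher in LJ at S4 and none at S5. Of 7 secondary wall genes, 1 was called higher in LJ at each stage, with sums of 198 to 343 FPKM in LJ and 135 to 198 FPKM in blade at S4. At S5 the sums of these 7 genes were 183 to 196 FPKM in LJ and 110.1 to 114 FPKM in blade. None of the 3 light harvesting and photosystem genes was called, with sums of 5205 to 21640 FPKM in LJ and 6931 to 30810 FPKM in blade at S4, and of 2808 to 4972 FPKM in LJ and 6051 to 9506 FPKM in blade at S5. DL, which forms the midrib, was higher in LJ at S4 by 1.21 ± 0.30, with 0.962 and 2.59 FPKM in LJ and 0 and 0.323 FPKM in blade, and was not called at S5. The sum of the 4 KNOX meristem genes did not exceed 1.14 FPKM in the LJ libraries at S4, nor 0.124 FPKM in the blade libraries. At S5 the KNOX sum was 3.59 to 5.81 FPKM in LJ and 0.312 to 0.528 FPKM in blade, and 1 of the 3 tested, OSH71, was called higher in LJ. At the stages of the rule, the cell division genes summed to 1047 to 1123 FPKM in LJ at S1 and 540 to 730 FPKM at S2, where the members were low. Where the members were high, the sums were 541 to 610 FPKM in blade at S1, 176 to 210 FPKM in blade at S2 and 116 to 178 FPKM in LJ at S3. A link between cell division and the members was not tested.

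The second question was what happened to the members once their highest stage had passed. From S3 to S4 in blade, 152 members fell (76.0%), against 24.9% of all tested genes, and 5 rose (2.5%), against 8.08%. The median difference was -3.31 over the members and -0.25 over all genes. Both S4 libraries lay below both S3 libraries in 169 members (84.5%), against 41.3% of all genes, and above them in 11 (5.5%), against 17.1%. Under upper quartile scaling the medians were -2.86 over the members and 0.04 over all genes. Between 142 and 157 members fell when any single library was left out.

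The largest falls were in the run on chromosome 10. OS10G0150400 had 1.17 and 0.749 FPKM in blade at S4 and 3590 and 4176 FPKM at S3, a difference of -10.96 ± 0.45 (limma adjusted p = 1.5e-09). The differences of OS10G0150700, OS10G0150800 and OS10G0150600, all called, were -10.35 ± 0.36, -10.29 ± 0.50 and -10.28 ± 0.36. LTP2-B fell by 10.07 ± 0.50 and LTP2-A by 9.85 ± 0.48, EXPB11 by 4.93 ± 0.46 and GER5 by 4.20 ± 0.39. EXPB3 fell by 2.48 ± 0.65 (limma adjusted p = 0.0083), which was lost without replicate 2 of blade at S3 or replicate 1 at S4. COMT1 differed by -0.92 ± 0.74 and did not pass (limma adjusted p = 0.39).

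Of the 5 members that rose in blade at S4, OS01G0639900 had 3585 and 8949 FPKM at S4 and 329 and 223 FPKM at S3, a rise of 4.38 ± 0.71 (limma adjusted p = 2.5e-04), and had the highest mean of all members in blade at S4 and S5. OS08G0502700 rose by 2.04 ± 0.49, OS03G0251000 by 1.97 ± 0.71, OS12G0292400 by 1.75 ± 0.46 and OS05G0594100 by 0.95 ± 0.30. Except for OS01G0639900, each of these calls was lost without at least 1 library. The call of OS03G0251000 was also lost with a replicate block shared by the stages of a tissue (limma adjusted p = 0.0607). Without replicate 2 of blade at S3, 2 members were called higher, and 3 without replicate 1 at S3 or either replicate at S4.

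From S4 to S5 more members fell than rose in both tissues. In LJ, 77 members fell (38.5%), against 9.01% of all genes, and 11 rose (5.5%), against 19.5%. In blade, 67 fell (33.5%), against 8.87%, and 6 rose (3.0%), against 23.8%. The medians were -0.75 over the members and 0.25 over all genes in LJ, and -0.64 over the members and 0.28 over all genes in blade. Under upper quartile scaling they were -1.05 over the members and 0.03 over all genes in LJ, and -0.997 over the members and 0.00 over all genes in blade. The S5 libraries lay below the S4 libraries in 116 members in LJ (58.0%), against 22.3% of all genes, and in 119 in blade (59.5%), against 19.7%. They lay above in 27 members in LJ (13.5%), against 45.4%, and in 26 of the 200 in blade, against 44.6%. In both tissues 55 members fell, 71.4% of the members' LJ calls and 82.1% of their blade calls. Over all tested genes the overlap was 66% of the LJ calls and 67% of the blade calls, and both tests share the spread estimated for each gene. With the spread taken only from the 2 groups compared, 0 members were called in either tissue, with an unadjusted p under 0.05 by limma in 92 members in LJ and 95 in blade. Those fits also called 0 of all tested genes in either tissue. Without replicate 2 of LJ at S4, 51 members fell and 21 rose in LJ. Without replicate 1 of LJ at S5 48 fell and 4 rose, and without replicate 1 of LJ at S4 3 rose. In blade, 2 members rose without replicate 2 at S4 or replicate 1 at S5, and 10 without either LJ library at S4.

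GER5 was among the genes that fell most in both tissues, by 5.09 ± 0.39 in LJ (limma adjusted p = 1.6e-06) and by 6.84 ± 0.39 in blade (limma adjusted p = 1.2e-07). OS01G0878900 had 8.46 and 16.3 FPKM in LJ at S5 and 950.3 and 484 FPKM at S4, a fall of 5.73 ± 0.45, and in blade 0.381 and 0.627 FPKM at S5 and 960.1 and 526 FPKM at S4, a fall of 8.89 ± 0.45. OS05G0568300 fell by 6.22 ± 0.41 in LJ and 6.52 ± 0.41 in blade, and OS11G0644700 by 5.65 ± 0.56 and 5.47 ± 0.56. These genes were thus still on at S4, after the run on chromosome 10 had gone low, and fell at S5. LTP2-B fell by 2.82 ± 0.50 in LJ and 2.79 ± 0.50 in blade. LTP2-A fell in blade by 2.17 ± 0.48 and differed by -0.70 ± 0.48 in LJ, with overlapping libraries (limma adjusted p = 0.29). COMT1 fell in blade by 3.38 ± 0.74 (limma adjusted p = 0.0036) and differed by -1.99 ± 0.74 in LJ, just short of the threshold (limma adjusted p = 0.0585).

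Among the genes that rose at S5, OS09G0376400 stood out in LJ, with 13.7 and 6.55 FPKM at S5 and 0 and 0.254 FPKM at S4, a rise of 3.23 ± 0.33 (limma adjusted p = 1.6e-05). It had been on in LJ at S3, with 21.1 and 30.7 FPKM, so it was high, low and high again. OS06G0656300 rose in LJ by 2.35 ± 0.54, OS07G0142200 by 2.18 ± 0.55, OS07G0599900 by 2.15 ± 0.71 and OS11G0507200 by 1.90 ± 0.53. These 4 calls were each lost without replicate 1 of LJ at S4. In blade OS07G0599700, OS02G0254600, OS02G0612900, OS03G0793800 and OS01G0963000 rose by 2.39 ± 0.73, 2.19 ± 0.23, 2.18 ± 0.38, 2.02 ± 0.68 and 1.94 ± 0.53. OS02G0254600 had 188 and 199 FPKM in blade at S5 and 38.5 and 45.04 FPKM at S4, and rose clear of its replicate spread. The calls of OS07G0599700, OS03G0793800 and OS01G0963000 were lost without single libraries.

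The change between S4 and S5 itself differed between the tissues in few members. The test of the difference of changes, LJ minus blade, called 1 member higher (0.5%), against 0.208% of all genes, and 2 lower (1.0%), against 0.151%. With the replicate block it called 4 higher, against 182 of all tested genes, and 2 lower. LTP2-A, for which only the blade fall was called, had a difference of 1.47 ± 0.68 (limma adjusted p = 0.91), so its falls were not shown to differ.

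Among the listed leaf genes whose symbol passed the check against the annotation, the expansins and lignin genes held members. The lipid transfer and germin-like lists, the latter with GER5 as its single gene, were made after values were seen. That these lists held members follows from how they were made. The check dropped 71 of 153 pairs, and 3 members among those dropped are not counted in any list. Among 10 expansins, EXPB3 and EXPB11 were members. With these included, 6 of 10 were called higher in LJ at S4 and 8 at S5, and none lower. EXPB11 was among the calls at both stages and EXPB3 only among those at S5. The list medians were 2.47 and 2.90 on the log2 scale, against 0.23 and 0.15 over all genes. EXPA6, an alpha-expansin, was higher in LJ by 4.04 ± 0.37 at S4 and 3.76 ± 0.37 at S5, and EXPB4 by 3.24 ± 0.37 and 2.86 ± 0.37. In blade 8 of 10 expansins fell from S3 to S4, and 1, EXPB2, rose.

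The lipid transfer list, whose symbols were paired after values were seen, held LTP2-A, LTP2-B and 2 genes beside them that were not members, LTP110-A on chromosome 11 and LTP on chromosome 12. LTP110-A had 382 and 301.3 FPKM in LJ and 77.2 and 77.7 FPKM in blade at S4, and LTP had 332 and 464 FPKM in LJ and 104 and 195 FPKM in blade. Both had under 20 FPKM in LJ at S3. In blade LTP110-A rose by 2.15 ± 0.38 and LTP by 2.99 ± 0.54 between S3 and S4, where LTP2-A and LTP2-B fell. At S4 and again at S5, 3 of the 4 passed the test as higher in LJ than in blade, LTP being the exception at both.

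Among 7 lignin genes COMT1 was the only member, and 1 of the 7, LAC10, was called higher in LJ at S4 and none at S5. None of the 7 secondary wall genes was a member. The cellulose synthases of that wall came closest, CESA7 at rank 290 with a score of 2.37 and CESA4 at rank 659 with 1.68. Like most members, 6 of the 7 fell in blade from S3 to S4, CESA7 by 3.01 ± 0.46. No member was found among 14 water channel and silicon transporter genes or 11 cell division genes. The light harvesting and photosystem list kept only 3 of 21 loci and had 1 member among those dropped, so it says little about these genes.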

How the data were processed

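RNA was sequenced from lamina joint and blade at 5 stages, 20 libraries in all. The authors deposited FPKM values per feature. Per the submitters' processing notes, the tools named were CASAVA 1.8, Trimmomatic 0.36, TopHat2 2.1.1 and Cufflinks 2.2.1, with the IRGSP-1.0 build. The library kit is not stated to be stranded. FPKM keeps no read counts, so the depth is unknown. Each library lists 82632 features; the 37829 with a rice gene ID were used. Their FPKM summed to 860684 to 1079325 per library, 18265 to 21695 genes reached 1 FPKM, and replicates correlated at 0.938 to 0.988 on the log2 scale.

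From these, log2(FPKM + 1) was fitted with limma 3.58.1 in R 4.3.3 (trend, 1 mean per group, all 10 groups, 26403 genes at 1 FPKM or more in 2 libraries or more), checked on simulated data. The members and gene lists were chosen with earlier results of these data known. Symbols came from background knowledge and were kept where chromosome and gene order matched RefSeq (assembly ASM3414082v1): 77 of 148 listed pairs, and 5 added after values were seen. Genes named in the text are members with a symbol, the 10 highest scores, genes beside the threshold and the most abundant member per group. Also named are the 5 largest called rises and falls per comparison without overlap between libraries, and those said to be chosen afterwards. LG1, DL, OSH71, EXPA6, EXPB4, EXPB2, LAC10, CESA7 and CESA4 are not members and are named as examples from their lists.

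The sample titles number the replicates but do not say that the numbers pair the tissues. Deviations of same-numbered LJ and blade libraries correlated at 0.478, 0.213, 0.663, 0.774 and 0.516 for S1 to S5. A pairing within a stage is thus inferred, and was weakest at S2. Between S3 and S4 and between S4 and S5 of 1 tissue the correlations were of mixed sign (-0.257 to 0.204). The main fits assumed no pairing of any kind. For comparisons between tissues the replicate block was the replicate number within each stage. For comparisons of stages in 1 tissue it was the replicate number within each tissue, shared by all stages. Alternatives were another pseudocount, other filters, upper quartile scaling, quantile normalization, a replicate block, fits of only the groups compared, and each library left out.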

Additional observations from a re-analysis of the deposited data

Results flagged for a closer look

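The change from S4 to S5 differed between LJ and blade by the test of that difference in 3 members. In OS02G0612900 the difference of changes, LJ minus blade, was -2.79 ± 0.54 (limma adjusted p = 0.043), with 33.3 and 48.1 FPKM in LJ at S5 and 70.7 and 54.1 FPKM at S4, and 214 and 264 FPKM in blade at S5 and 73.9 and 36.1 FPKM at S4. In OS06G0604000 it was -2.30 ± 0.43 (limma adjusted p = 0.035), with 0.345 and 1.01 FPKM in LJ at S5 and 5.78 and 11.3 FPKM at S4, against at most 0.244 FPKM in the blade libraries of these stages. In OS09G0376400 it was 2.61 ± 0.47 (limma adjusted p = 0.031), with 13.7 and 6.55 FPKM in LJ at S5 and 0 and 0.254 FPKM at S4, and 1.14 and 0.475 FPKM in blade at S5 and 0.138 and 0.167 FPKM at S4. The 3 calls were lost in 17, 16 and 12 of the 20 fits that left out 1 library each.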

How the results depend on the processing

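The counts of members called moved most when fewer groups were fitted. With only the groups compared in a fit, which leaves 2 libraries a group, the call of members higher in LJ at S4 went to 0, falls and rises from S4 to S5 in LJ and in blade to 0, and the tissue difference of that change to 0 higher and 0 lower, while unadjusted p-values under 0.05 were found in 62, 92, 95 and 25 members. The calls that went to 0 were also 0 over all tested genes, apart from 1 higher and 3 lower for the tissue difference. These fits also gave 1 member lower in LJ at S5, against 218 of all genes, and 2 higher in blade at S4 than S3, against 686. With the replicate block 5 members were lower in LJ at S4, 80 higher and 10 lower at S5, and 4 had a higher change in LJ, and the block changed no other count by over 1.5 times and no call of a named member other than those of OS03G0251000, GER5 and COMT1. Over all tested genes these block counts were 685, 4020, 1617 and 182. Upper quartile scaling and quantile normalization, which moved the median tissue difference of all genes at S4 from 0.23 to 0.00 and -0.04, gave 2 and 1 members lower in LJ at S4 and 11 and 8 higher in blade at S4 than S3, and upper quartile scaling gave 6 higher in LJ at S5 than S4 and 2 with a higher change in LJ. The 5 FPKM filter gave 1 member lower in LJ at S4 and 0 higher and 0 lower changes, and a pseudocount of 0.1 FPKM gave 11 members higher in blade at S5 than S4, 0 lower changes, and 132 of the 200 members chosen again.

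Leaving out 1 library at a time gave 19 to 56 members higher and 0 to 4 lower in LJ at S4 (4 without blade S4 replicate 1), 30 to 61 higher and 1 to 3 lower at S5, 2 to 5 higher and 142 to 157 lower in blade at S4 than S3, 2 to 10 higher and 48 to 71 lower in blade at S5 than S4, 3 to 21 higher and 48 to 81 lower in LJ at S5 than S4, 0 to 2 higher and 0 to 4 lower changes, and 184 to 197 members chosen again. Of 59 called values of named members, 40 kept their call without any single library. Reversals of sign were limited to 13 fits of uncalled values. They were the change difference of EXPB3 (-0.20 and -0.16 without LJ S4 replicate 1 and blade S4 replicate 2) and of LTP2-B (1.83, 0.10 and 0.017 with the 0.1 pseudocount, upper quartile scaling and quantile normalization, and 0.77, 0.51 and 0.10 without LJ S4, blade S4 and blade S5 replicate 2, in a range from -0.82), EXPB11 in blade at S5 minus S4 (0.064 without blade S5 replicate 1, and down to -0.91), GER5 in LJ minus blade at S5 (-0.078 without LJ S5 replicate 1, and up to 0.90), and COMT1 in LJ minus blade at S4 (0.25 and 0.30 without LJ S4 replicate 1 and blade S4 replicate 2, and down to -1.65) and in blade at S4 minus S3 (0.056 without blade S4 replicate 1, and down to -1.89). The cause of these moves was not tested. No read depth is known, so the counting error of low FPKM values cannot be given here.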
